A study of Mus musculus with 6 samples.

Results

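The DNA replication and nucleotide synthesis genes are 37 genes that act when a cell copies its genome: factors that license and fire replication origins, proteins of the replication fork, enzymes that make deoxynucleotides, and the E cyclins. The rule is a list of names and uses no measured value. All 37 were found among the 24011 genes of the deposited table, and all 37 passed the filter for testing (1 FPKM or more in 2 or more of the libraries). FPKM counts fragments per kilobase of transcript, scaled to the mapped fragments, so levels can be compared between genes of a library, while a comparison between libraries also depends on their other RNA.

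The RNA came from CD4 T cells of C57BL/6 mice, flow sorted from lymph nodes and spleens. The YAP cKO mice carry a floxed YAP gene, Yap1, on both alleles and a Cre driven by the CD4 promoter, which acts in T cells from the thymus on and not in regulatory T cells alone, and the WT mice are their reference. YAP is a co-activator of transcription in the Hippo pathway. The 6 libraries are, for each genotype, stimulated natural regulatory T cells (nTregs, sorted as CD4+ with high CD25, CD62L+ or CD62L-), freshly sorted nTregs, and freshly sorted naive CD4 T cells (CD62L+ CD25-). Stimulation was with 2 µg/ml plate-bound anti-CD3, 2 µg/ml soluble anti-CD28 and 100 U/ml IL-2, for 24 h according to one label and 48 h according to another. Each group is 1 library, and the labels do not give the number of mice behind it or their age and sex.

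Defining markers were checked against the labelled cell types. Foxp3, the defining factor of regulatory T cells, had 45.9 to 57.8 FPKM in the 4 nTreg libraries and 2.98 to 3.30 FPKM in the naive libraries. The summed level of 5 B cell markers was 1.74 to 13 FPKM, almost all of it Cd79b in fresh nTregs, with Pax5 at 0 to 0.129 FPKM. Yap1 could not check the genotypes. It had 0.235 FPKM in cKO and 0.169 FPKM in WT stimulated nTregs, about 8.93 and 4.95 fragments, and is listed at 0 in the other 4 libraries. All directions between genotypes therefore rest on the column names of the table, in which the columns not named WT were read as cKO. The deposited values are per-transcript estimates with no totals, and 1 fragment on a transcript of 1 kb was worth about 0.104 to 0.135 FPKM.

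Before S phase, the origin recognition complex, Cdc6 and Cdt1 load the MCM helicase onto DNA in an inactive form. Cdc45 and the GINS complex then turn it into a moving helicase, after which primase, the replicative polymerases, the PCNA clamp with its RFC loader, the RPA single-strand binding proteins, Fen1 and ligase I copy both strands. Many of these genes are transcribed under E2F factors, which RB family proteins hold in check in resting cells. Resting T cells lie outside the cycle, and a signal through the antigen receptor with CD28 and IL-2 brings them into it.

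Promoter windows of 30 of the 37 genes were matched by symbol in the RefSeq table of build GRCm38.p6 (250 bases before to 50 bases after an annotated start). Both strands were searched for the E2F letters TTTCCCGC, TTTCGCGC, TTTGCCGC and TTTGGCGC, and matches may overlap each other. The E2F letters were found for 12 of the 30 genes (40.0%), against 704 of 27025 genes in the whole table (2.60%). Related gene lists held them too. The share was 41.2% of regulators of the E2F and RB pathway, 21.6% of other replication and nucleotide genes and 20% of fork partners. Windows of 5 genes are printed 5′ to 3′ on the strand of the gene, with E2F letters in capitals. Mcm6 is shown because it rose most among the subunits of the MCM helicase and holds 3 matches, Cdt1 because it holds a match and fell, and Orc1 because it had the largest genotype difference in stimulated cells. Mcm10, which rose most of all, and Pcna, which did not pass the test, hold no match. The Mcm10 window ends in TTTGGCG, all but the last of the letters TTTGGCGC, so a match across that edge could not be seen.
Mcm6, chr1:128359656-128359955, minus strand: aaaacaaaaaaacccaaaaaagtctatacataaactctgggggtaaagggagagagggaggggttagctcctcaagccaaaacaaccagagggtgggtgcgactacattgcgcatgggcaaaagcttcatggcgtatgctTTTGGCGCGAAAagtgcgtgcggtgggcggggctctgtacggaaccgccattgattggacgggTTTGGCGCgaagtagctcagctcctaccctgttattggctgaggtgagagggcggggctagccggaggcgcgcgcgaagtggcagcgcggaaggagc
Cdt1, chr8:122567765-122568064, plus strand: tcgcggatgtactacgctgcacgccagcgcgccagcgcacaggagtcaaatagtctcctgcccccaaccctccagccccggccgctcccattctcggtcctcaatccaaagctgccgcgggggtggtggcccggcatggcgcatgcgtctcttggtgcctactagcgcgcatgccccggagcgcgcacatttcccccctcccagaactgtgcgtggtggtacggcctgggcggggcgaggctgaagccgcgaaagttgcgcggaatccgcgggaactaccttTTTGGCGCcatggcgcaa
Orc1, chr4:108579204-108579503, plus strand: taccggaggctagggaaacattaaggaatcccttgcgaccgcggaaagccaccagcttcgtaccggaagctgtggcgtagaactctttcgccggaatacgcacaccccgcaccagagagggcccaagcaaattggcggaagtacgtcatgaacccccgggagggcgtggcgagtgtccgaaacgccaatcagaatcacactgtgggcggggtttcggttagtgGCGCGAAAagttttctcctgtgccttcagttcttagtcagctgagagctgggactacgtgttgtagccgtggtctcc
Mcm10, chr2:5012742-5013041, minus strand: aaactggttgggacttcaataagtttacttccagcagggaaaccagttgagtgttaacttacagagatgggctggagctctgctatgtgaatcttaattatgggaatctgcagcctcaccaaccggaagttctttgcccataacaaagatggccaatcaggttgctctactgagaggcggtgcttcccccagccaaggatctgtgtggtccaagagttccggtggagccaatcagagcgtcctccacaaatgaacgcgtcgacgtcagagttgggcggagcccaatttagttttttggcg
Pcna, chr2:132253131-132253430, minus strand: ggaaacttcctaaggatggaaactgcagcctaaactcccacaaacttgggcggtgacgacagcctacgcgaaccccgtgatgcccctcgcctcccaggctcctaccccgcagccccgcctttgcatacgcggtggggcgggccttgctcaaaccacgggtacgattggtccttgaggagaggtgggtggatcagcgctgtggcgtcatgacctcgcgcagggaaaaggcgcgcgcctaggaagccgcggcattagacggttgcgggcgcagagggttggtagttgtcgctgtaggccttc

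In the Mcm6 window the matches begin at -110, -106 and -47 from the annotated start, and the first pair overlap. The Cdt1 match begins at 32, after the start, and the Orc1 match at -27. The other genes with a match were Cdc6, Mcm3, Mcm5, Mcm7, Gins3, Rfc3, Pola1, Pold1 and Lig1, so 6 of the 12 encode MCM subunits or their loaders Cdc6 and Cdt1, besides Orc1. The letters CCAAT, read by NF-Y, were in windows of 63.3% of the replication genes and 41.1% of all genes. The share was 81.8% in a mitosis list, 73.3% in fork partners, 58.8% in E2F and RB regulators and 40.5% in other pathway genes. The letters TTTGAA of the CHR element, known from genes of mitosis, were in 13.3% of the replication genes, against 72.7% of a list of mitosis genes (16 of 22) and 20.2% of all genes. The mitosis list held E2F letters in 1 of 22 genes (4.55%). A match is only a run of letters, and its absence says only that these letters are not in the window.

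**Figure D1:**
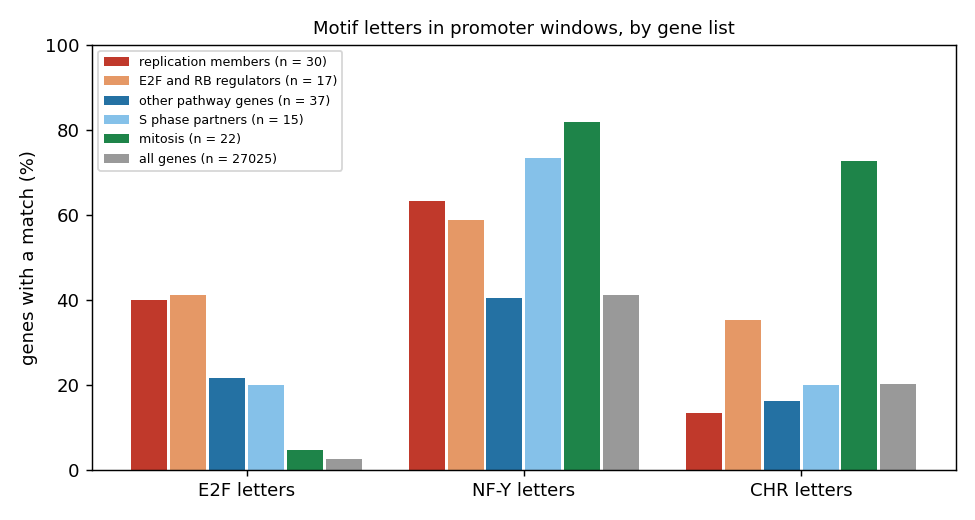
Share of genes (%) with a match to the E2F, NF-Y or CHR letters in a promoter window, for the replication genes and 4 other lists, beside all genes in the table. E2F letters reach 40.0% in the replication genes, 41.2% in the E2F and RB regulators and 2.60% in all genes. CHR letters reach 72.7% in the mitosis list and 13.3% in the replication genes.

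Most of the set was higher in stimulated than in fresh nTregs. No library holds nTregs kept in culture without the stimuli, so stimulation and time in culture cannot be told apart. A rise or fall with stimulation names this comparison only. In nTregs 28 of the 37 genes were higher in stimulated than in fresh libraries and 1 gene, Cdt1, was lower, at an adjusted p under 0.05 (limma, both genotypes together, Benjamini-Hochberg over all 11224 genes tested). The same test called 22.5% of all genes higher and 27.3% lower. The median difference of the 37 genes was 0.85 on the log2(FPKM + 1) scale, against -0.05 over all genes, and 35 of the 37 genes were above 0, as were 46.7% of all genes. The p-values measure the spread between libraries with the 2 genotypes standing in as replicates, and not the spread between mice. In bulk RNA, more cells in S phase and more RNA per cell cannot be told apart.

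The summed level of all 37 genes was 1395 FPKM in cKO and 1032 FPKM in WT stimulated nTregs, 755 and 684 FPKM in fresh nTregs, and 757 and 782 FPKM in naive cells. Both stimulated libraries stood above both fresh libraries for 29 genes, below them for 1 gene, and overlapped with them for 7 genes. Over all genes tested, 33.8% stood wholly above and 40.1% wholly below. The stimulated libraries had FPKM sums of 595524 and 534274 (cKO and WT), lower than the 837179 to 968967 of the other 4. Setting the sums equal moved the median of all genes from -0.05 to 0.47, and 36 replication genes were then called higher with Cdt1 still lower, where 6724 of 11373 genes were called higher and 1022 lower. The replication genes stood 0.90 above the median of all genes as deposited and 0.93 above it after that rescaling.

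**Figure D2:**
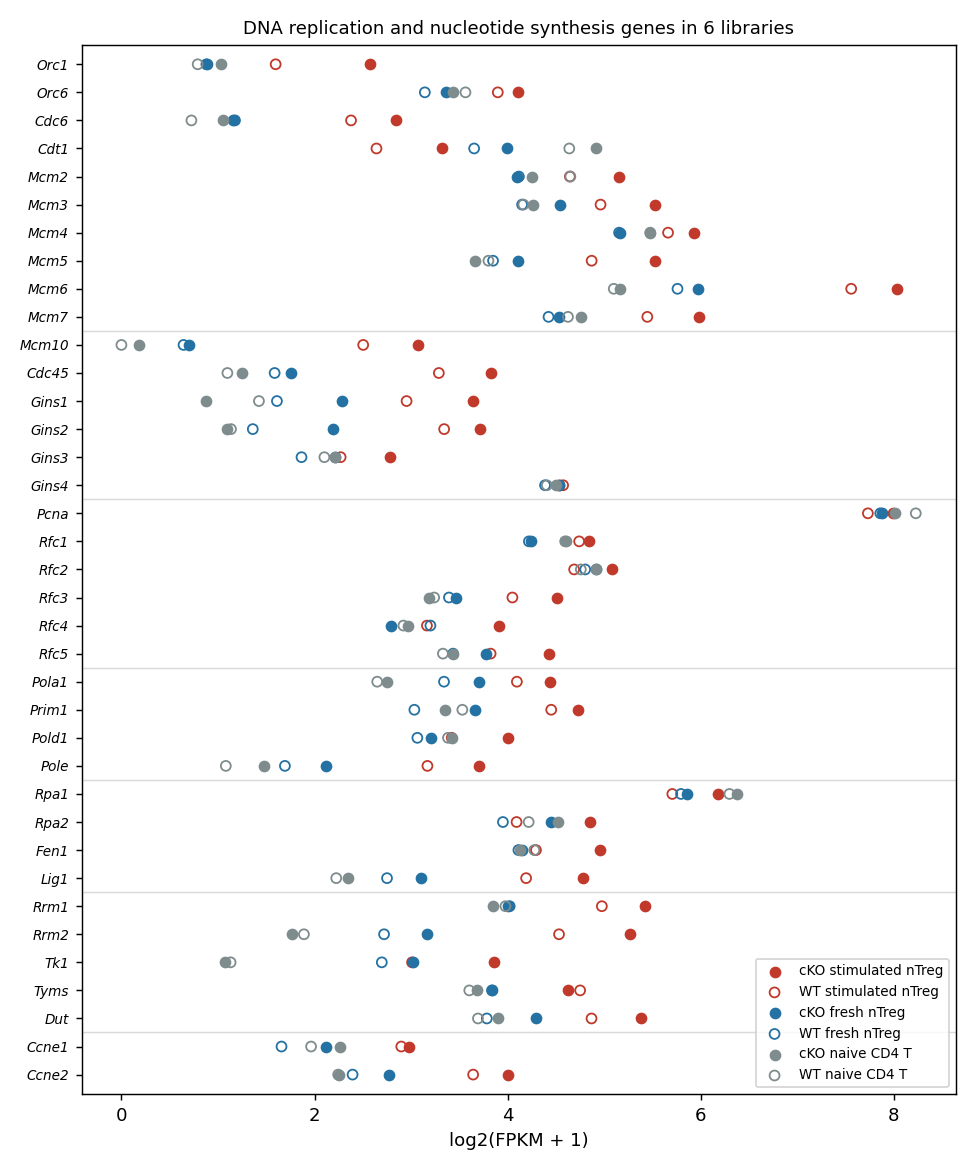
Level of each of the 37 genes, log2(FPKM + 1), in the 6 libraries, with grey lines between roles (origin licensing, helicase activation, clamp and loader, polymerases, strand processing, deoxynucleotides, cyclin E). Red points (stimulated) lie to the right of blue points (fresh) for most genes, Cdt1 runs the other way, and Gins4, Pcna and Rfc2 have all 6 points close together.

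Among the licensing genes 9 of 10 rose. Orc1, the cell-cycle regulated subunit of the origin recognition complex, had 4.95 FPKM in cKO and 2.03 FPKM in WT stimulated nTregs, 0.851 and 0.840 FPKM in fresh nTregs, and 1.04 and 0.729 FPKM in naive cells. Cdc6, which recruits the helicase to origins, had 6.18 and 4.20 FPKM in cKO and WT stimulated nTregs, 1.23 and 1.26 FPKM in fresh nTregs, and 1.08 and 0.653 FPKM in naive cells. Both genes were near 1 FPKM in fresh nTregs and in naive cells. With stimulation Orc1 rose by 1.20 ± 0.25 (SE, adjusted p = 0.00953) and Cdc6 by 1.44 ± 0.17 (adjusted p = 0.00121), limma on the log2 scale. The Orc1 call depended on 1 library, with an adjusted p of 0.0715 when the cKO fresh library was left out. Orc6, the smallest subunit, had 16.3 and 13.9 FPKM in cKO and WT stimulated nTregs, 9.31 and 7.83 FPKM in fresh nTregs and 9.84 and 10.8 FPKM in naive cells. The subunits Orc2 to Orc5, which are not among the 37, had 13.8 to 32.2 FPKM in every library, and of these Orc2 (0.57) and Orc3 (0.30) passed the test.

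Cdt1 was the exception of the set. This loader of the MCM helicase had 8.97 and 5.24 FPKM in cKO and WT stimulated nTregs, 15 and 11.6 FPKM in fresh nTregs, and 29.1 and 23.9 FPKM in naive cells. The 3 populations did not overlap, and the level was lowest after stimulation and highest in naive cells. It fell by 0.85 ± 0.13 in stimulated against fresh nTregs (SE, adjusted p = 0.00293) and fell by 0.95 in fresh nTregs against naive cells (adjusted p = 0.00334), limma on the log2 scale. Both calls held with each library left out in turn, with adjusted p up to 0.0282 and 0.0335. Gmnn, whose product geminin binds and inhibits Cdt1, had 25.8 and 14.8 FPKM in cKO and WT stimulated nTregs, 13.9 and 10.4 FPKM in fresh nTregs and 10.4 and 13.2 FPKM in naive cells, and its rise with stimulation of 0.66 missed the threshold (adjusted p = 0.063). The ratio of Cdt1 to Gmnn FPKM was 0.347 and 0.353 in cKO and WT stimulated nTregs, 1.08 and 1.12 in fresh nTregs and 2.81 and 1.81 in naive cells.

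The 6 subunits of the MCM2-7 helicase assemble in equal numbers, yet their RNA levels did not move by equal amounts. Mcm6 had 260.4 and 187.5 FPKM in cKO and WT stimulated nTregs, 61.9 and 53.2 FPKM in fresh nTregs, and 35.0 and 33.3 FPKM in naive cells. It rose by 1.93 ± 0.11 with stimulation (SE, adjusted p = 0.00014), a 3.89-fold ratio of mean FPKM, and was already higher in fresh nTregs than in naive cells by 0.73 (adjusted p = 0.0049). The other 5 subunits spanned 34.7 to 62.2 FPKM in cKO and 24.0 to 49.6 FPKM in WT stimulated nTregs, 16.1 to 34.8 and 13.4 to 34.6 FPKM in fresh nTregs, and 11.7 to 43.4 and 12.9 to 43.5 FPKM in naive cells. Mcm6 thus held 51.4% and 51.8% of the MCM2-7 FPKM in cKO and WT stimulated nTregs, 35.7% and 34.4% in fresh nTregs and 22.9% and 21.6% in naive cells. Only 0.769% of the 50-base stretches of Mcm6 occur in transcripts of another gene, the pseudogene Gm15654.

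The remaining helicase subunits all rose with stimulation, by 1.24 for Mcm7, 1.22 for Mcm5, 0.90 for Mcm3, 0.80 for Mcm2 and 0.64 for Mcm4. Mcm5 had 45.0 and 28.3 FPKM in cKO and WT stimulated nTregs, 16.2 and 13.4 FPKM in fresh nTregs and 11.7 and 12.9 FPKM in naive cells. Mcm2 had 34.7 and 24.0 FPKM in cKO and WT stimulated nTregs, 16.1 and 16.4 FPKM in fresh nTregs, and 18.0 and 24.1 FPKM in naive cells, so its WT naive and WT stimulated values were alike. Its stimulation call was lost without either fresh library (adjusted p up to 0.0898). Mcm4, the most abundant subunit in naive cells, had 59.8 and 49.6 FPKM in cKO and WT stimulated nTregs, 34.8 and 34.6 FPKM in fresh nTregs and 43.4 and 43.5 FPKM in naive cells. Mcm7 shares 34.2% of its 50-base stretches with other genes, mainly Gm5487 on the same strand, so part of its reads could have been assigned either way.

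**Figure D3:**
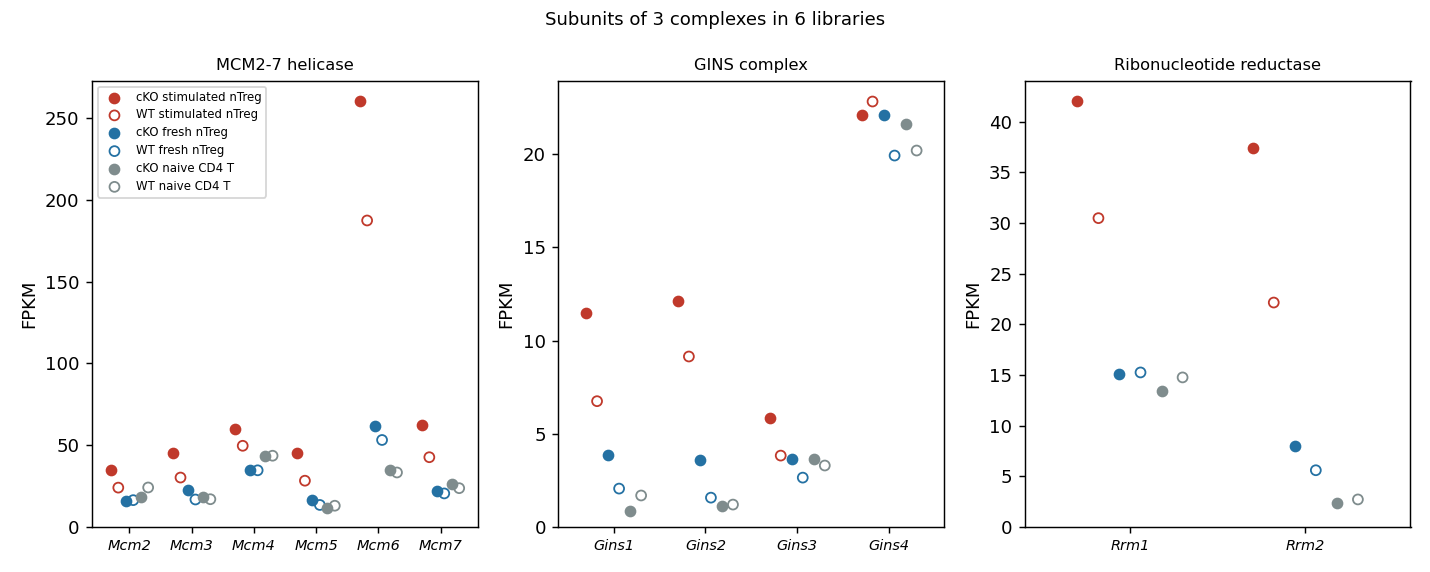
FPKM of the subunits of the MCM2-7 helicase, the GINS complex and ribonucleotide reductase in the 6 libraries, with filled points for cKO and open points for WT. Mcm6 stands at 260.4 and 187.5 FPKM in stimulated nTregs while the other MCM genes stay at or under 62.2 FPKM, Gins4 spans 19.9 to 22.8 FPKM, and Rrm2 lies near Rrm1 only in stimulated nTregs.

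Of the genes that turn the loaded helicase on, 5 of 6 rose, and their median difference of 1.55 was the highest of the 7 roles. Mcm10, which helps to activate the helicase and brings polymerase alpha to the fork, had 7.40 and 4.67 FPKM in cKO and WT stimulated nTregs, 0.628 and 0.562 FPKM in fresh nTregs, and 0.132 and 0 FPKM in naive cells. These values correspond to about 236 and 115, 18.8 and 17.9, and 3.97 and 0 fragments, so Mcm10 was close to the detection limit in naive cells, where 3 fragments are 0.0996 FPKM in the cKO and 0.117 FPKM in the WT library. It rose by 2.11 ± 0.18 with stimulation (SE, adjusted p = 0.000442), the largest difference of the 37 genes on this scale, or 10.2-fold in mean FPKM. Cdc45, the helicase cofactor, had 13.2 and 8.77 FPKM in cKO and WT stimulated nTregs, 2.38 and 2.00 FPKM in fresh nTregs and 1.37 and 1.14 FPKM in naive cells, a rise with stimulation of 1.89 ± 0.15 (adjusted p = 0.000388).

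The 4 GINS subunits, which also assemble in equal numbers, fell into different patterns. Gins1 had 11.5 and 6.75 FPKM in cKO and WT stimulated nTregs, 3.86 and 2.05 FPKM in fresh nTregs, and 0.839 and 1.68 FPKM in naive cells. Gins2 had 12.1 and 9.14 FPKM in cKO and WT stimulated nTregs, 3.57 and 1.57 FPKM in fresh nTregs and 1.14 and 1.20 FPKM in naive cells. Gins3 had 5.86 and 3.83 FPKM in cKO and WT stimulated nTregs, 3.63 and 2.64 FPKM in fresh nTregs and 3.62 and 3.29 FPKM in naive cells. These 3 rose with stimulation, Gins2 by 1.75, Gins1 by 1.35 and Gins3 by 0.49, but not in every fit with a library left out. The Gins1 call was lost without the cKO stimulated or the WT fresh library (adjusted p up to 0.0893), and the Gins3 call without either of these or the cKO fresh library (adjusted p up to 0.179). Gins4 did not pass (0.09 ± 0.09, adjusted p = 0.424) and stood at 19.9 to 22.8 FPKM in all 6 libraries. It held 42.9% and 53.7% of the GINS FPKM in cKO and WT stimulated nTregs, 66.6% and 76.1% in fresh nTregs, and 79.4% and 76.6% in naive cells. Of the Gins2 50-base stretches, 70.3% lie antisense in transcripts of Gse1, and the counting is not stated to use strand, so Gins2 values are uncertain.

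The clamp and its loader were among the least responsive genes. Pcna, the sliding clamp and the most abundant of the 37, had 253.9 and 211.5 FPKM in cKO and WT stimulated nTregs, 234.2 and 231.3 FPKM in fresh nTregs, and 257.0 and 298.7 FPKM in naive cells. It differed by -0.01 ± 0.12 between stimulated and fresh nTregs (SE, adjusted p = 0.97), and made up 18.2% and 20.5% of the summed FPKM of the 37 genes in cKO and WT stimulated nTregs, against 31.0% and 33.8% in fresh nTregs and 33.9% and 38.2% in naive cells. The pseudogene Pcna-ps2 shares 31.8% of its 50-base stretches on the same strand. Of the 5 loader subunits, Rfc1, Rfc3 and Rfc5 rose with stimulation (0.56, 0.85 and 0.52), and Rfc2 (0.03) and Rfc4 (0.54, adjusted p = 0.13) did not pass. Rfc2 had 24.8 to 32.9 FPKM in all 6 libraries. Rfc3 had 21.9 and 15.6 FPKM in cKO and WT stimulated nTregs, 10.0 and 9.5 FPKM in fresh nTregs and 8.10 and 8.44 FPKM in naive cells. Rfc5 had 20.6 and 13.2 FPKM in cKO and WT stimulated nTregs, 12.7 and 9.82 FPKM in fresh nTregs and 9.85 and 9.06 FPKM in naive cells, and lost its call without the cKO stimulated library or either fresh library (adjusted p up to 0.115).

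All 4 polymerase and primase genes rose with stimulation. Pole, the catalytic subunit of the leading strand polymerase epsilon, had 12.0 and 8.0 FPKM in cKO and WT stimulated nTregs, 3.34 and 2.23 FPKM in fresh nTregs, and 1.78 and 1.12 FPKM in naive cells, a rise with stimulation of 1.53 ± 0.12 (SE, adjusted p = 0.000407). Prim1, the catalytic primase subunit, had 25.6 and 20.9 FPKM in cKO and WT stimulated nTregs, 11.7 and 7.19 FPKM in fresh nTregs and 9.18 and 10.6 FPKM in naive cells, and rose by 1.24. Pola1, the polymerase that extends the primers, had 20.7 and 16.1 FPKM in cKO and WT stimulated nTregs, 12.0 and 9.13 FPKM in fresh nTregs and 5.71 and 5.27 FPKM in naive cells. Its levels stepped up in both comparisons, by 0.75 between stimulated and fresh nTregs and by 0.83 between fresh nTregs and naive cells (adjusted p = 0.00323 and 0.00388). Pold1, of the lagging strand polymerase delta, had 15 and 9.71 FPKM in cKO and WT stimulated nTregs, 8.24 and 7.37 FPKM in fresh nTregs and 9.76 and 9.43 FPKM in naive cells, and its rise of 0.57 was lost without either fresh library or without the cKO stimulated library (adjusted p up to 0.142).

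Of the genes for single-strand DNA binding and joining of Okazaki fragments, only Lig1 passed the test of stimulation. Lig1, the ligase that seals these fragments, had 26.4 and 17.3 FPKM in cKO and WT stimulated nTregs, 7.59 and 5.73 FPKM in fresh nTregs, and 4.07 and 3.68 FPKM in naive cells, a rise with stimulation of 1.56 ± 0.14 (SE, adjusted p = 0.000529). Rpa1, the large subunit of RPA, had 71.2 and 51.2 FPKM in cKO and WT stimulated nTregs, 57.2 and 54.6 FPKM in fresh nTregs, and 81.8 and 77.6 FPKM in naive cells. Rpa2, the middle subunit, had 27.9 and 16.1 FPKM in cKO and WT stimulated nTregs, 20.8 and 14.5 FPKM in fresh nTregs and 21.9 and 17.6 FPKM in naive cells. For both RPA genes the stimulated and fresh libraries overlapped. Both were higher in cKO than in WT within every population, which held for 20 of the 37 genes and for 19.6% of all genes tested. Fen1, the flap endonuclease, had 30.1 and 18.6 FPKM in cKO and WT stimulated nTregs and 16.3 to 18.4 FPKM in the other 4 libraries, and missed the threshold (0.49 ± 0.19, adjusted p = 0.0767). By deposited symbol alone, which leaves out 2 of its transcripts, Fen1 had 17.0 and 8.27 FPKM in cKO and WT stimulated nTregs, 8.68 and 7.23 FPKM in fresh nTregs and 6.31 and 7.97 FPKM in naive cells. Fen1 values are also uncertain because 88.5% of its 50-base stretches lie antisense in Gm10143.

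In deoxynucleotide synthesis 4 of 5 genes rose, and the balance of ribonucleotide reductase RNAs differed between populations. This enzyme makes deoxynucleotides from ribonucleotides, with a large subunit from Rrm1 and a small subunit from Rrm2 that is limited to cycling cells. Rrm2 had 37.4 and 22.1 FPKM in cKO and WT stimulated nTregs, 7.99 and 5.59 FPKM in fresh nTregs, and 2.40 and 2.71 FPKM in naive cells. Rrm1 had 42.0 and 30.5 FPKM in cKO and WT stimulated nTregs, 15.1 and 15.2 FPKM in fresh nTregs and 13.4 and 14.8 FPKM in naive cells. Rrm2 rose by 1.95 ± 0.20 with stimulation (SE, adjusted p = 0.00088) and Rrm1 by 1.19 ± 0.15 (adjusted p = 0.00166). The ratio of Rrm2 to Rrm1 FPKM was 0.890 and 0.727 in cKO and WT stimulated nTregs, 0.531 and 0.367 in fresh nTregs, and 0.18 and 0.184 in naive cells. The alternative small subunit of resting cells, Rrm2b, not among the 37, had 8.40 and 11 FPKM in cKO and WT stimulated nTregs and 8.75 to 9.92 FPKM in the other libraries.

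The thymidylate genes gave differing patterns. Tk1, the cytosolic thymidine kinase of S phase, had 13.5 and 7.06 FPKM in cKO and WT stimulated nTregs, 7.09 and 5.48 FPKM in fresh nTregs, and 1.10 and 1.19 FPKM in naive cells. Its largest step was between fresh nTregs and naive cells (1.76, adjusted p = 0.00271), while the step with stimulation missed the threshold (0.58 ± 0.22, adjusted p = 0.0715). The mitochondrial kinase Tk2, not among the 37, went the other way, with 12.9 and 13.6 FPKM in cKO and WT stimulated nTregs, 22.8 and 23.2 FPKM in fresh nTregs and 28.7 and 30.4 FPKM in naive cells. Tyms, thymidylate synthase, had 23.7 and 25.9 FPKM in cKO and WT stimulated nTregs, 13.4 and 13.3 FPKM in fresh nTregs and 11.8 and 11.2 FPKM in naive cells, and rose with stimulation by 0.85 (adjusted p = 0.00113). Dut, which removes dUTP, had 40.7 and 28.2 FPKM in cKO and WT stimulated nTregs, 18.7 and 12.8 FPKM in fresh nTregs and 13.9 and 11.9 FPKM in naive cells, and rose by 1.08 (adjusted p = 0.000804).

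The E cyclins, which drive entry into S phase with Cdk2, both rose with stimulation. Ccne1 had 6.90 and 6.46 FPKM in cKO and WT stimulated nTregs, 3.33 and 2.16 FPKM in fresh nTregs, and 3.81 and 2.90 FPKM in naive cells, a rise of 1.05 ± 0.14 (SE, adjusted p = 0.00202). Ccne2 had 15.1 and 11.5 FPKM in cKO and WT stimulated nTregs, 5.82 and 4.26 FPKM in fresh nTregs and 3.77 and 3.74 FPKM in naive cells, a rise of 1.24 ± 0.14 (adjusted p = 0.00101). Most of Ccne2 came from a transcript that the deposited table leaves without a symbol and that RefSeq assigns to it. Without that transcript the gene had 2.89 and 2.05 FPKM in cKO and WT stimulated nTregs, 0.983 and 2.20 FPKM in fresh nTregs and 0.879 and 0.747 FPKM in naive cells. By deposited symbols alone the groups thus overlapped and the call was lost (0.45, adjusted p = 0.255, limma).

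**Figure D4:**
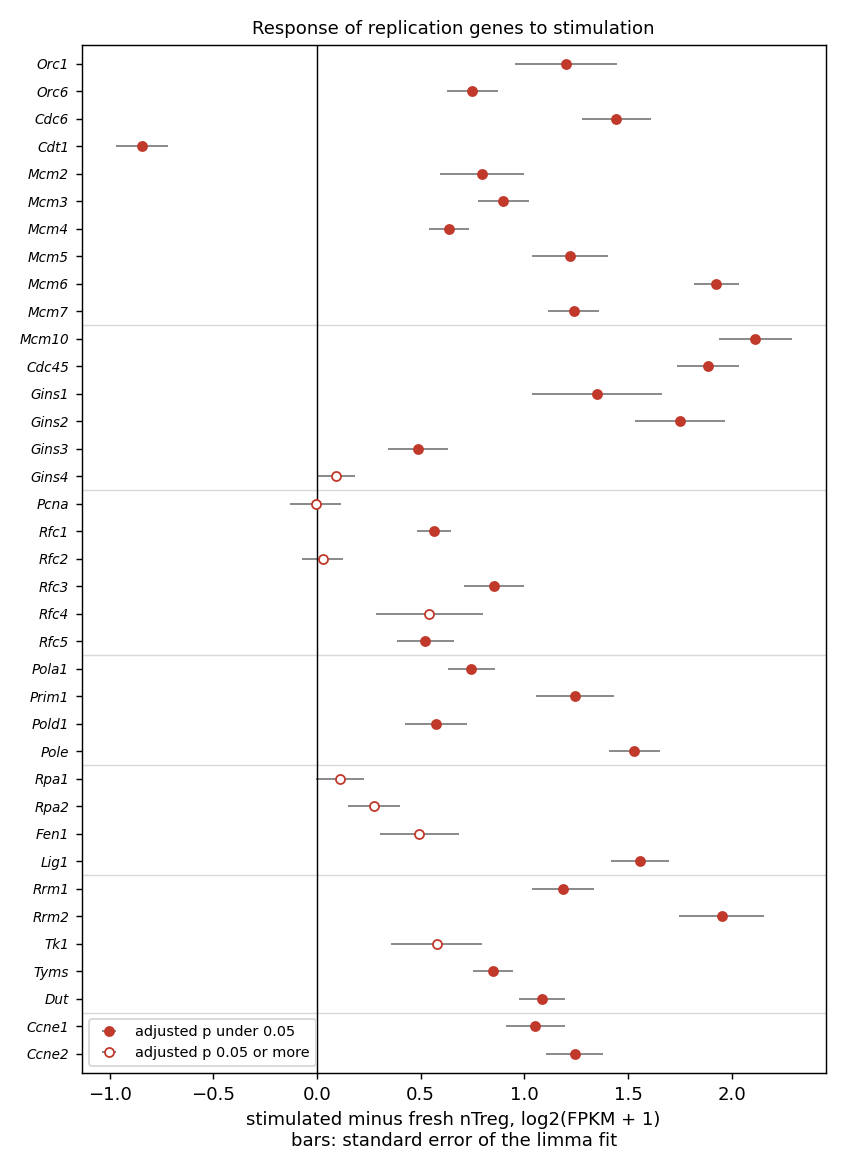
Stimulated minus fresh nTregs for each gene on the log2(FPKM + 1) scale, with bars for the standard error of the limma fit and filled points for an adjusted p under 0.05. Mcm10 lies farthest right at 2.11 and Cdt1 alone lies clearly left of 0 at -0.85, with Gins4, Pcna, Rfc2 and Rpa1 near 0.

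Among the 37, the genes that were scarce in naive cells had the larger responses. By a limit chosen after the values were seen, the 13 genes with a mean under 5 FPKM in naive cells had a median difference of 1.44 between stimulated and fresh nTregs, and 12 of them passed the test (all but Tk1). The 24 genes at 5 FPKM or more had a median of 0.69, with 16 passing in the same direction. Across the 37 genes Spearman's rho between the naive level and the stimulation difference was -0.57, and across all 11224 genes tested it was -0.26. The 2 quantities come from different libraries but share each gene's length and sequence, and genes are not independent replicates. By promoter letters, the 12 genes with E2F letters had a median difference of 1.05 (range -0.85 to 1.93). The 18 genes with a window but no E2F letters had a median of 0.77 (range -0.01 to 2.11), and the ranges overlap widely. The value of 2.11 is that of Mcm10, whose window ends inside a possible match.

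Fresh nTregs differed from naive cells in fewer of these genes. Mcm6, Pola1, Pole, Lig1, Rrm2 and Tk1 were higher (6 of 37) and Cdt1, Rfc1 and Rpa1 were lower (3 of 37), by limma at an adjusted p under 0.05, where 16.5% of all genes were called higher and 14.7% lower. The median difference of the 37 genes was 0.10, against -0.02 over all genes. Lig1 was higher by 0.64 and Rrm2 by 1.12, whereas Rfc1, the large loader subunit, was lower by 0.37 (adjusted p = 0.0205) and Rpa1 by 0.50 (adjusted p = 0.023). Rfc1 had 17.9 and 17.6 FPKM in cKO and WT fresh nTregs, against 23.4 and 23.2 FPKM in naive cells. The calls of Cdt1, Mcm6, Pola1 and Tk1 held with every library left out in turn, and those of Rfc1, Pole, Rpa1, Lig1 and Rrm2 did not (adjusted p up to 0.191, 0.114, 0.194, 0.114 and 0.0662). Rfc1 and Pole lost their calls without any 1 of the 4 naive and fresh libraries, Rpa1 and Lig1 without either fresh library or, in turn, the WT naive and the cKO naive library, and Rrm2 without the cKO fresh library.

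The genotype difference was largest in stimulated nTregs, where 35 of 37 genes were higher in the cKO than in the WT library. The median difference was 0.51 on the log2(FPKM + 1) scale, against 0.04 over all 11105 genes measured there, and 55.2% of those genes were higher in cKO. With 1 library per group, differences within a population have no replicate check and no test. With folds taken of FPKM + 1, at least 1.5-fold higher in cKO were 10 of the 37 genes and none was that much lower, beside 5.17% and 2.94% of all genes, and no replication gene reached 2-fold (1.21% of all genes higher). In FPKM itself, Orc1 was 2.44-fold higher in cKO. Those 10 were Orc1, Cdt1, Mcm5, Gins1, Rfc4, Rfc5, Rpa2, Fen1, Rrm2 and Tk1. The exceptions to the direction were Tyms at -0.12 and Gins4 at -0.05.

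**Figure D5:**
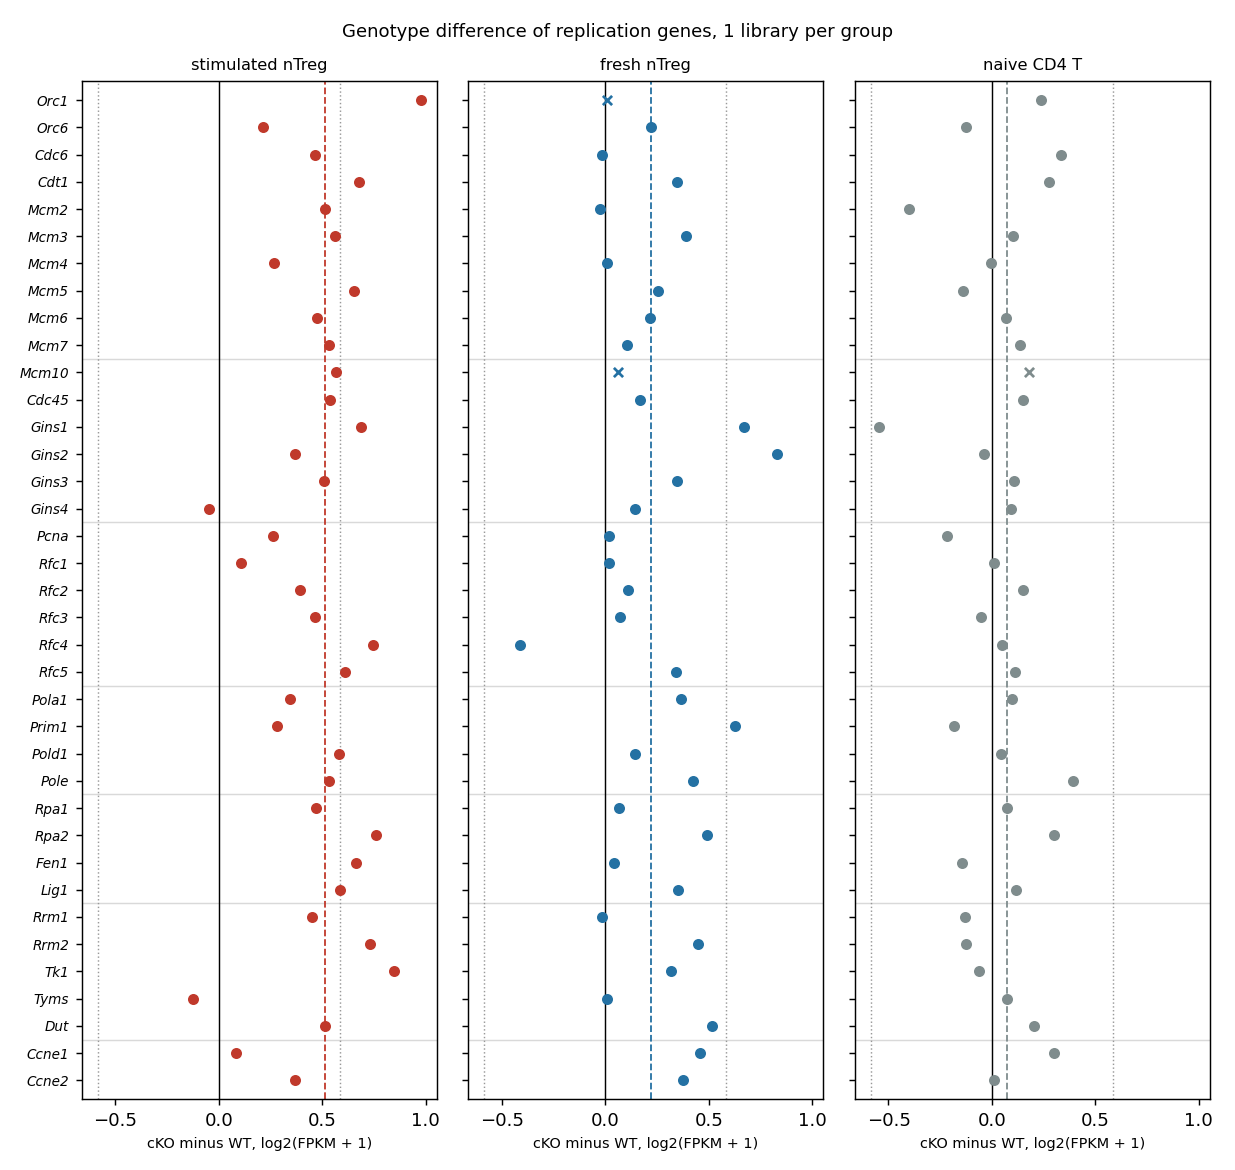
Difference of cKO minus WT for each gene, log2(FPKM + 1), in stimulated nTregs, fresh nTregs and naive CD4 T cells, 1 library per group, with crosses for genes under 1 FPKM in both libraries, a dashed line at the median and dotted lines at 1.5-fold. The median is 0.51 in stimulated nTregs, 0.22 in fresh nTregs and 0.07 in naive cells.

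Orc1 had the largest difference in stimulated nTregs, 0.98, with 4.95 FPKM (about 135 fragments, 95% exact Poisson interval 113 to 160) in cKO and 2.03 FPKM (about 42.6 fragments, 30.8 to 57.5) in WT. The intervals do not overlap, and they cover counting error only. Tk1 followed at 0.85, Rpa2 at 0.76, Rfc4 at 0.74, Rrm2 at 0.73 and Gins1 at 0.69. Rfc4, a loader subunit, had 14 and 7.97 FPKM in cKO and WT stimulated nTregs, 5.92 and 8.19 FPKM in fresh nTregs, and 6.83 and 6.57 FPKM in naive cells, so its stimulated cKO library alone stood apart.

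In fresh nTregs 31 of the 35 genes measured (Orc1 and Mcm10 were under 1 FPKM) were higher in cKO, as were 5440 of the 10889 genes measured there, with a median of 0.22 against 0.00 over all genes. Gins2 (0.83), Gins1 (0.67) and Prim1 (0.63) were at least 1.5-fold higher, 3 of 35, beside 2.42% of all genes higher and 1.45% lower. Dut (0.51), Rpa2 (0.49) and Ccne1 (0.46) came next. About 201 fragments stood behind the Dut value in cKO and 199 in WT, and the split between its 2 transcripts differed. The transcript NM_001159646 had 11.7 FPKM in cKO and 2.02 FPKM in WT, and NM_023595 had 6.98 and 10.8 FPKM. The Gins1 values rest on about 31.7 fragments in cKO and 17.9 in WT, whose 95% intervals overlap. In naive cells the directions were mixed. There 23 of 36 genes were higher in cKO, as were 49.8% of all genes, the median was 0.07 against 0.00 over all genes, and none was 1.5-fold apart on this scale (2.19% and 1.86% of all genes). The largest were Gins1 at -0.55, from about 6.92 and 11.8 fragments, Mcm2 at -0.40, Pole at 0.39, Cdc6 at 0.33, and Ccne1 and Rpa2 at 0.30.

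Across the 3 populations no replication gene passed the test of genotype. By limma with population in the model, 0 of 37 were called, the smallest adjusted p was 0.159 (Rpa2, 0.52 ± 0.10), and 12 of 37 had an unadjusted p under 0.05. Over all genes 0.258% were called higher and 0.116% lower, and 1346 of 11224 had an unadjusted p under 0.05. The coefficient was above 0 for 36 of the 37 genes, where 53.8% of all genes were, with a median of 0.26 against 0.01. In 20 of the 37 genes the cKO library was higher in 3 of 3 populations, which held for 19.6% of all genes. Among them were Orc1, Cdt1, Mcm6, Mcm10, Cdc45, all but Prim1 of the 4 polymerase genes, both RPA genes, Lig1, Dut and both E cyclins. This count has no threshold, and some cases are near ties or rest on few fragments. Orc1 had about 21.8 fragments in cKO and 22.9 in WT fresh nTregs, and Mcm10 about 3.97 and 0 in naive cells. Ccne2 had 3.77 and 3.74 FPKM in naive cells. By deposited symbols alone Ccne2 was lower in cKO fresh nTregs (0.983 and 2.20 FPKM). After Rpa2 the smallest p-values were those of Dut (0.41), Pole (0.45) and Cdt1 (0.43), each short of the threshold after adjustment (0.195, 0.196 and 0.215). For Dut, the cKO and WT values in fresh nTregs rest on about equal fragments (201 and 199), split differently between its transcripts. Here the populations stand in as replicates, and a genotype effect that differs between populations adds to the error.

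The stimulation response, stimulated minus fresh, was larger in cKO than in WT for 28 of 37 genes, with a median difference of 0.27 against 0.04 over all genes. This too has no test. On the scale of FPKM + 1, Rfc4 (1.15) alone passed 2-fold, as did 0.868% of all genes. Rfc4, Orc1 (0.97) and Fen1 (0.62) differed by at least 1.5-fold and no gene by that much the other way, beside 4.63% and 3.90% of all genes. Gins2 (-0.46), Ccne1 (-0.37) and Prim1 (-0.35) had the smaller response in cKO, with fresh cKO values already above the fresh WT values. Rescaling the libraries to an equal FPKM sum brought the median of the 37 genes to 0.14 and that of all genes to -0.10.

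Other measures moved with genotype in stimulated nTregs. A fragment on 1 kb was worth about 0.104 FPKM in the cKO and 0.135 FPKM in the WT library, and 4872 and 4122 genes were listed at 0. The fresh nTreg and naive libraries listed more genes at 0, from 9110 to 10154. Of the markers of naive T cells, Ccr7 had 60.8 FPKM in cKO and 52.1 FPKM in WT, Lef1 had 46.1 and 63.1 FPKM, and Tcf7 had 26.7 and 30.8 FPKM. The 4 regulatory T cell markers summed to 753 and 760 FPKM, and the 5 B cell markers to 3.44 and 6.06 FPKM. The part of these in the genotype differences was not tested.

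Other genes of the pathway were read beside the 37. Of 44 further replication and nucleotide genes, 26 rose and 2 fell (Tk2 and Rnaseh2c) between stimulated and fresh nTregs, with a median of 0.47. Over all genes tested, 22.5% were called higher and 27.3% lower. The largest were Ticrr (1.55), needed to fire origins, Dna2 (1.53), a nuclease of Okazaki fragments and Pole2 (1.46), of polymerase epsilon. None of the 44 passed the test of genotype (limma, 8 at an unadjusted p under 0.05), and the median cKO minus WT difference in stimulated nTregs was 0.20. Pole2 had 14.7 and 9.59 FPKM in cKO and WT stimulated nTregs, 4.12 and 3.28 FPKM in fresh nTregs and 14.2 and 8.92 FPKM in naive cells, so its naive and stimulated values were alike. Samhd1, which breaks down deoxynucleotides, had 181 and 185 FPKM in cKO and WT stimulated nTregs, 174 and 177 FPKM in fresh nTregs and 97.4 and 76.9 FPKM in naive cells.

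Among 19 partners of the fork in repair and chromatin assembly, 14 rose with stimulation and none fell, with a median of 0.84. Uhrf1 (1.76), which brings maintenance methylation to new DNA, and the checkpoint kinase gene Chek1 and Brca1 (both 1.69) led that list. Of 22 regulators of the E2F and RB pathway 10 rose and 3 fell with stimulation. Beside both lists, 22.5% of all genes were called higher and 27.3% lower. Ccna2, the S phase cyclin A, had 27.1 and 17.8 FPKM in cKO and WT stimulated nTregs, 3.75 and 2.28 FPKM in fresh nTregs and 1.20 and 0.735 FPKM in naive cells. E2f8, a repressor E2F, rose by 1.63, Cdkn1a by 1.66 and Tfdp1, the partner of E2F factors, by 1.28. E2f2 fell by 1.08, Rbl2, an RB relative, by 0.83 and the inhibitor gene Cdkn1b by 0.82. Rbl2 stood apart only in fresh nTregs, at 59.5 and 50.6 FPKM in cKO and WT. Its values were 28.9 and 31.9 FPKM in cKO and WT stimulated nTregs and 28.9 and 31.7 FPKM in naive cells. E2f1 itself stayed low, at 1.90 and 1.17 FPKM in cKO and WT stimulated nTregs and 0.499 to 0.735 FPKM in the other 4 libraries, and rose by 0.71 (adjusted p = 0.020).

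Genes of mitosis, the later phase of the cycle, also rose with stimulation. All 26 on that list passed the test, with a median of 1.55, where 22.5% of all genes were called higher. In fresh nTregs 15 were higher than in naive cells, beside 6 of the 37 replication genes and 16.5% of all genes. The median cKO minus WT difference of the mitosis list was 0.66 in stimulated nTregs, 0.35 in fresh nTregs and 0.08 in naive cells. Top2a, the topoisomerase that untangles chromosomes, was the 1 gene of all these lists that passed the test of genotype (0.72, adjusted p = 0.0433), with 105 and 57.3 FPKM in cKO and WT stimulated nTregs, 19.0 and 10.8 FPKM in fresh nTregs and 7.57 and 4.87 FPKM in naive cells. Whether replication and mitosis genes differ in their genotype response was not tested.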

How the data were processed

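The kit kept strand, ribosomal RNA was depleted, and libraries used 322 ng of total RNA and 12 PCR cycles, per the labels' protocols. The submitters' processing notes name FastQC, TopHat, Cuffdiff and Cuffnorm with the mm10 build and give no versions. The values the authors deposited are FPKM per RefSeq transcript in 6 columns, 1 per library. FPKM depends on transcript length and on the other RNA of the library. It holds no counts, and count models were therefore left aside.

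The table held 32860 rows for 32547 transcripts, and 165 transcripts listed more than once had identical values and entered 1 time. Names came from the RefSeq table of GRCm38.p6 (32097) or else from the deposited symbol (401), and FPKM was summed per gene. limma 3.58.1 (R 4.3.3) was fitted to log2(FPKM + 1) for the 11224 genes that reached 1 FPKM in 2 or more libraries, with population and genotype as terms, an intensity trend and Benjamini-Hochberg adjustment. The fit has 2 residual and 4.02 prior degrees of freedom. Its trial on simulated data used the same spread for every gene and the same genotype shift in every population. That trial therefore does not cover spreads that differ between genes or shifts that differ between populations. The fold of low genes is understated by the pseudocount of 1. Folds of at least 1.5 or 2 within a population, and of the response between genotypes, are counted on the same scale, over genes that reached 1 FPKM in either library.

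Fragments were estimated from steps between low values, after taking 180 bases off each length. Between 74.8% and 79.2% of the low values lay within 0.1 fragment of a whole number, so depths are estimates, the steps were not clean enough for a count test, and intervals (95%, exact Poisson) and floors (3 fragments) cover counting error only. Overlap between genes is the share of 50-base stretches found in transcripts of other genes. Motif letters were searched in promoter windows with Python 3.11.15.

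Genes named with values in every library follow a rule: those with the largest differences in each comparison, the highest and lowest by level, and the first of each role. The remaining genes of the set were added for completeness. Gmnn, Orc2 to Orc5, Rrm2b, Tk2, E2f1, E2f2, Rbl2 and Cdkn1b were named after their values were seen. The genes and lists were chosen with earlier results of these data known. Of the lists, Claspn was not found by that symbol. Alternatives tried were the pseudocount, the filter, 2 rescalings, the highest transcript per gene, leaving out each library and, added after seeing the data, naming by deposited symbols only. Some genes of the marker and pathway lists are not reported here.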

Additional observations from a re-analysis of the deposited data

Results flagged for a closer look

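Mcm2 was higher in cKO than in WT stimulated nTregs, by 0.51 on the log2(FPKM + 1) scale, and lower in cKO than in WT naive cells, at -0.40. Gins1 was higher in cKO nTregs, by up to 0.69, and lower in cKO naive cells, at -0.55, where about 6.92 and 11.8 fragments stand behind the values. Rfc4 was higher in cKO stimulated nTregs, by 0.74, and lower in cKO fresh nTregs, at -0.41. These 3 genes are listed because their genotype differences ran in opposite directions in 2 populations, each past a minimum size. Each group is 1 library, so the difference between populations was not tested.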

How the results depend on the processing

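Apart from those given next, the counts of called genes stayed within 1.5 times of the values reported under the alternatives run. The count of genes higher in fresh nTregs than in naive cells was 3 without a filter on low values and 11 after rescaling to an equal FPKM sum (2767 of all 11373 genes), and the count lower was 1 after that rescaling, in place of 6 and 3. The same rescaling called 40 of the 44 other pathway genes higher with stimulation, in place of 26 (6724 of all 11373 genes), and brought the median response difference between genotypes to 0.139. By construction it raises the stimulated libraries. Leaving out 1 library at a time gave 23 to 32 genes higher and 1 lower with stimulation, 3 to 7 higher and 1 to 7 lower between fresh nTregs and naive cells, 0 for genotype, 17 to 27 of the other pathway genes higher with stimulation and 0 for genotype. The low counts of 3 and 17 came without the cKO fresh library, the 7 lower without either stimulated library, and the 1 lower without the WT naive or either fresh library. Of the 29 genes called with stimulation 23 kept the call in every such fit, and of the 9 called between fresh nTregs and naive cells 4 did. No difference that was called, or was at least 1.5-fold within a population, reversed in direction among those computed. Smaller differences did change sign in places, such as that of Pcna with stimulation after rescaling to an equal FPKM sum. Where 1 library of a population is left, its spread is assumed to equal that of the others. The labels give no replicate numbers, and the fit reported compares genotypes within populations. Depth limits statements on Mcm10, Gins1, Orc1 and Cdc6 in fresh nTregs and naive cells.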
